A study of Mus musculus with 6 samples.

Results

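The ribosomal protein pseudogenes described here are gene copies that carry the symbol of a ribosomal protein gene of the large (Rpl) or small (Rps) subunit followed by -ps and a number, such as Rpl10-ps3 for a copy of Rpl10. They were found by symbol alone after the Ensembl identifiers of the deposited files had been matched to mouse gene symbols, and 167 of 29275 genes were members. A pair of further copies, Rps12-ps3 and Rpl39-ps, meets the same symbol pattern and was left out by the rule. Both lay lower in all 3 knockout libraries, Rps12-ps3 with means of 1029 ± 89.2 (wild-type) and 137.4 ± 26.2 FPKM (knockout; SD, n = 3 each), and the counts given here do not include them. The members belong to 52 parent genes, and GENCODE M21 classes 157 of them as processed pseudogenes, 7 as transcribed processed pseudogenes and 3, Rpl10-ps3, Rpl9-ps6 and Rpl36a-ps1, as protein coding.

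Gene expression was measured by RNA sequencing of primary mouse Sertoli cells, the somatic nurse cells of the seminiferous tubule, grown in serum-containing medium with EGF. The 3 control libraries are labelled WT, with an untreated culture, and the other 3 are labelled Arhgef15 cKO, a conditional deletion of the guanine nucleotide exchange factor gene Arhgef15 in Sertoli cells. No label names the Cre driver, the deleted exons, the strain or the age of the mice. The titles number the biological replicates but do not say that each culture came from its own animal, so the spread behind each p-value may be technical.

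Ribosomal proteins assemble with ribosomal RNA into the small and large ribosomal subunits, and their messenger RNAs are among the most abundant in growing cells. Processed pseudogenes arise when a messenger RNA is copied back into DNA and inserted elsewhere in the genome, so they lack the introns of the parent gene. Abundant, short ribosomal protein messages have left many such copies in mammalian genomes. Because a copy resembles the spliced parent message, a sequenced fragment can match the parent, the copy and further copies, and a level listed for a copy need not come from RNA made at that place.

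A few copies show how close these sequences are. Rps13-ps2 and Rpl35a-ps2 are copies that lay lower in every knockout library, Rps15a-ps6 and Rps15a-ps5 are sister copies of the same parent that differed in opposite directions, and Rpl36a-ps3 lay higher in every knockout library. The sequences are the GENCODE M21 transcripts of the listed Ensembl identifiers, written 5′ to 3′ and limited to 300 bases, from position 1 to 300 of each copy and from 5 to 304 of Rps15a-ps6. Each stretch holds every difference found over the whole copy. Capitals mark letters that differ from the coding part of the compared gene, which is the parent in each case but Rpl36a-ps3, set here against Rpl36al.
Rps13-ps2: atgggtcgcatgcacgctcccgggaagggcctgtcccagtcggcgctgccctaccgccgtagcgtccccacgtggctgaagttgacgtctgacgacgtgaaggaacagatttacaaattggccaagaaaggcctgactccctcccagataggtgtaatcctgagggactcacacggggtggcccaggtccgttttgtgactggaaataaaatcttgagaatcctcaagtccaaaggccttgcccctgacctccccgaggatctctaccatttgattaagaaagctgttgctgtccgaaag
Rpl35a-ps2: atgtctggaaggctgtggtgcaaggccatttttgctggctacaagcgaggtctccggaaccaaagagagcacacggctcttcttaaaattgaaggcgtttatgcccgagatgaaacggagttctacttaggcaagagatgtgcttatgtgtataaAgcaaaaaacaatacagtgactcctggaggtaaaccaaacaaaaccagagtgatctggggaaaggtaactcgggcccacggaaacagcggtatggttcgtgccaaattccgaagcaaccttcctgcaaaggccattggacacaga
Rps15a-ps6: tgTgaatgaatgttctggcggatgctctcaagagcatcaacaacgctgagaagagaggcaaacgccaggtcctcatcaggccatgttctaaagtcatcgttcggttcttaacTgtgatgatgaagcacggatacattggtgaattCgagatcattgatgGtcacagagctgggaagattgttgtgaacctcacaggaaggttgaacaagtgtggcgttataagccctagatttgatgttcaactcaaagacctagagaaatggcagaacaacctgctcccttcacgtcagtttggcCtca
Rps15a-ps5: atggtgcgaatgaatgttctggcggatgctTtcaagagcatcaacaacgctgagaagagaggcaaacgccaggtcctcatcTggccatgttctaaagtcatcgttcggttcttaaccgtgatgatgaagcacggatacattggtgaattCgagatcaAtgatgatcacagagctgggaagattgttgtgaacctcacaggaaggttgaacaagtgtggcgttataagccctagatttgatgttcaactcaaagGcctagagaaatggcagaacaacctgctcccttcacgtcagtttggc
Rpl36a-ps3: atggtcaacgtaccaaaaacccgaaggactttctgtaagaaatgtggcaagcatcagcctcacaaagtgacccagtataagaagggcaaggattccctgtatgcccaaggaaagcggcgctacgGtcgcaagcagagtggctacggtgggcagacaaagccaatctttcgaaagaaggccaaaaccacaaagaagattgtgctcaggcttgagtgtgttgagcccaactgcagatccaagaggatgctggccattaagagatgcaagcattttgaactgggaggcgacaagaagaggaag
Rps13-ps2 carried 0 differences from Rps13 over all its 453 bases. Rpl35a-ps2 carried 1, G156A, where the parent's base comes first, the position counts from 1 at the first base of the copy, and the copy's base comes last. Its 333 letters are shared by 3 other members, Rpl35a-ps3, Rpl35a-ps4 and Rpl35a-ps6, and by Gm10243, which is no member. Rps15a-ps6 differs from Rps15a by C7T, C117T, T150C, A164G and T301C, and Rps15a-ps5 by C31T, A82T, T150C, T158A and A254G, so the sisters share 1 of their 5 differences. In Rps15a-ps6 the parent's reading frame holds 1 stop codon before its end, and in Rps15a-ps5 it is open. Rpl36a-ps3, named as a copy of Rpl36a, differs from that gene at 40 letters but from its paralog Rpl36al at 1, A125G.

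Depth was similar in the 6 libraries, at 16790000 to 20320000 fragments as recovered from the step between neighbouring FPKM values. FPKM are fragments scaled to exon length and library depth. All 764 member values above 0 came out as whole fragments within 0.1 of a fragment, up to 5691 fragments. Estimates rounded before scaling would also be whole, so these values cannot tell whether fragments were split between a copy and its parent. No source used here says how fragments with several matching places were assigned. Arhgef15 itself had 0.123, 0.0237 and 0.349 FPKM (wild-type) and 0.501, 0.322 and 0.338 FPKM (knockout), so its level over the whole gene does not show the deletion. Sertoli markers were present in all libraries, with a mean log2(FPKM + 1) of 3.25, 3.23 and 4.37 in wild-type and 4.27, 3.97 and 4.33 in knockout libraries. Macrophage and leukocyte markers were lower in knockout libraries for 12 of 13 tested genes, with a summed level of 302.9 to 1272 FPKM in wild-type and 199.9 to 324.5 FPKM in knockout libraries. Some other lists were also one-sided. Spermatid markers were lower for 11 of 12 tested genes, with sums of 211.9, 87.7 and 283.6 FPKM (wild-type) and 445.8, 68.2 and 22.8 FPKM (knockout). Endothelial markers were higher for 9 of 10, with sums of 103.7 to 125.8 FPKM (wild-type) and 108.0 to 181.2 FPKM (knockout). Peritubular myoid markers, lower for 5 of 8, summed to 3729, 2908 and 628.7 FPKM (wild-type) and 887.8 to 1569 FPKM (knockout). Sertoli markers were higher for 14 of 20 tested genes and spermatogonia and spermatocyte markers for 5 of 6. Leydig markers were lower for 3 of 4 and fibroblast and stromal markers for 6 of 8. Wild-type replicate 3 lay beside the knockout libraries in the Sertoli and macrophage lists and correlated better with them across genes (0.921 to 0.947) than with the other wild-type libraries (0.860 and 0.898). The part of cell make-up in the results below was not tested, and in bulk RNA fewer cells of a type and less RNA per cell cannot be told apart.

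Most members were barely detected. Of the 167, 75 stayed below 1 FPKM in every library, 16 more reached 1 FPKM in fewer than 3 libraries, and 76 passed the filter of at least 1 FPKM in at least 3 of 6 libraries and were tested. No tested copy reached that level in only the knockout or only the wild-type libraries. Passing could still rest mainly on 1 group. Rps4x-ps and Rps15a-ps5, both higher in every knockout library, reached 1 FPKM in all of those but in only 1 wild-type library each. Among lower copies, Rpl10-ps6 and Rpl7-ps7 reached it in every wild-type library but not in every knockout library. Copies that passed were closer to their parents: their median identity to the parent transcript was 99.29%, against 96.72% for the 88 copies below the filter that could be aligned. Of the tested copies 12 were identical to the parent over the aligned stretch, and of the copies below the filter 0 were.

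Copies with a lower mean in knockout libraries outnumbered those with a higher mean, 55 to 21, but 0 of 76 passed the test over all genes (limma, Benjamini-Hochberg adjusted p under 0.05, smallest adjusted p = 0.118). That test called 2 of all 12284 genes, or 0.0163%. These were Rps12-ps3, left out by the rule (limma, adjusted p = 0.0111), and Rps27rt, a retrogene of Rps27 (limma, adjusted p = 0.00899). At an unadjusted p under 0.05 there were 22 members lower, against 2.94% of all tested genes, and 7 higher, against 3.87%. All 3 knockout values lay below all 3 wild-type values in 23 members, or 30.3%, against 5.01% of all tested genes. They lay above in 7 members, or 9.2%, against 6.28% of all genes, a share near the background. The median log2 difference was -0.46 over the tested members and 0.08 over all tested genes. These shares describe the members that passed the filter, which share parents and sequence and are not independent of each other.

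Rpl10-ps3, a copy of the large-subunit gene Rpl10 that GENCODE classes as protein coding, had the largest difference. Its levels in replicates 1, 2 and 3 were 82.1, 47.1 and 47.7 FPKM for wild-type and 9.34, 11.01 and 7.06 FPKM for knockout, the order kept for every gene below. Every knockout library thus lay far below the lowest wild-type library, and wild-type replicate 3 stayed with its own group. The means were 59.0 ± 20.02 and 9.14 ± 1.98 FPKM (SD, n = 3 each), 6.45-fold apart, and the log2 difference was -2.53 ± 0.28 (SE; limma, adjusted p = 0.118). The parent Rpl10 was also lower, at 624.6 ± 107.4 and 414.3 ± 27.6 FPKM, but by only -0.58 on the log2 scale (adjusted p = 0.673). Relative to Rpl10, the copy lay lower by 1.96 on the log2 scale in knockout libraries, without overlap between the groups (exact two-sided permutation p = 0.1, the smallest that 3 against 3 allows). Rpl10-ps3 matches Rpl10 with 0 mismatches over 740 of its 768 bases, so a fragment inside that stretch fits both places. The other tested Rpl10 copies differed less: Rpl10-ps6 by -1.08, Rpl10-ps1 by -0.61 and Rpl10-ps5 by -0.56 on the log2 scale.

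Rps13-ps2, which shares every letter of its annotated length with the small-subunit gene Rps13, had levels of 270.3, 157.9 and 162.7 FPKM (wild-type) and 70.5, 47.3 and 40.8 FPKM (knockout). On the FPKM scale the copy was thus about as high as its parent in wild-type libraries (197.0 ± 63.6 against 186.3 ± 39.9 FPKM for Rps13). It stood well under Rps13 in knockout libraries (52.9 ± 15.6 against 141.1 ± 11.4 FPKM). In fragments, which are not scaled to length, the named Rps13 copies together held 15.8% (wild-type) and 6.84% (knockout) of the family. The log2 difference of Rps13-ps2 was -1.87 ± 0.30 (SE; limma, adjusted p = 0.263), against -0.38 for Rps13. Copy and parent thus gave unequal differences although a fragment inside the copy matches both places. Rpl9-ps6, a copy of Rpl9 with 1 mismatch and the second of the lower copies classed as protein coding, had 69.5, 52.3 and 52.4 FPKM in wild-type and 28.8, 19.0 and 19.6 FPKM in knockout libraries (log2 difference -1.34, limma, adjusted p = 0.328). The parent Rpl9 overlapped between the groups, with a log2 difference of -0.23.

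The Rpl35a copies with the same letters were listed at very different levels. Rpl35a-ps2 had 87.9, 102.5 and 105.2 FPKM in wild-type and 56.1, 20.8 and 25.9 FPKM in knockout libraries, a log2 difference of -1.62 ± 0.36 (SE; limma, adjusted p = 0.545). Rpl35a-ps3 had 8.65, 12.9 and 16.6 FPKM against 6.04, 3.22 and 3.14 FPKM, a log2 difference of -1.42 (limma, adjusted p = 0.545). Rpl35a-ps4 had 2.24, 5.39 and 7.83 FPKM against 2.63, 0.894 and 0.747 FPKM, with overlapping groups and a log2 difference of -1.31, and Rpl35a-ps6 was listed at 0.154 FPKM or less in every library. In all 3 tested copies wild-type replicate 1 was the lowest wild-type library and knockout replicate 1 the highest knockout library. The parent Rpl35a, a large-subunit gene, had 30.5 ± 11.1 and 27.0 ± 2.42 FPKM and lay below Rpl35a-ps2 in 5 of 6 libraries on that scale. In fragments, which are not scaled to length, the 6 named copies together held 28.25% ± 9.92 (wild-type) and 12.2% ± 6.14 (knockout) of the family. These shares overlapped between the groups, at 19.12%, 38.8% and 26.82% against 19.14%, 7.45% and 10.01% (exact permutation p = 0.2).

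Further copies lay lower in every knockout library by smaller amounts. Rpl27-ps3, identical to the large-subunit gene Rpl27 over the aligned stretch, had 27.1, 12.1 and 14.4 FPKM in wild-type and 6.40, 6.96 and 8.11 FPKM in knockout libraries (log2 difference -1.13, limma, adjusted p = 0.557). Rpl7-ps7, a low copy of Rpl7, had 3.07, 2.89 and 3.33 FPKM against 1.23, 1.64 and 0.561 FPKM, a log2 difference of -0.97. Their parents Rpl27 and Rpl7 differed by -0.24 and -0.11. Rps6-ps4, identical to the small-subunit gene Rps6, followed its parent, with log2 differences of -0.56 for the copy and -0.62 for Rps6. Rpl23a-ps3 had 47.2, 42.0 and 40.8 FPKM against 30.5, 30.2 and 27.9 FPKM, a log2 difference of -0.54, while its parent Rpl23a differed by 0.01.

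On the other side, Rpl21-ps8, a copy of the large-subunit gene Rpl21 with 7 mismatches, had 3.64, 5.52 and 2.24 FPKM in the wild-type libraries and 14.5, 13.8 and 24.6 FPKM in the knockout libraries. Every knockout library lay above every wild-type library. The means of 3.80 ± 1.64 and 17.7 ± 6.05 FPKM were 4.64-fold apart, and the log2 difference was 1.97 ± 0.34 (SE; limma, adjusted p = 0.279). Its parent Rpl21 had 18.2 ± 12.9 and 15.1 ± 1.53 FPKM, a log2 difference of 0.01. The copy lies in an intron of Mbp on the opposite strand, and Mbp averaged 0.970 FPKM (wild-type) and 0.634 FPKM (knockout). Rpl21-ps15, another copy of Rpl21, had 66.1, 61.2 and 62.0 FPKM against 84.5, 86.6 and 93.8 FPKM (log2 difference 0.48, limma, adjusted p = 0.655).

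Rpl7a-ps3, a copy of the large-subunit gene Rpl7a with 12 mismatches, had 22.6, 10.5 and 7.36 FPKM in wild-type and 44.6, 36.1 and 43.0 FPKM in knockout libraries. The log2 difference was 1.68 ± 0.37 (SE; limma, adjusted p = 0.545), whereas Rpl7a was at 114.7 ± 51.7 and 82.2 ± 20.6 FPKM (SD, n = 3 each), a log2 difference of -0.40. Rpl7a-ps5 overlapped between the groups at 83.9, 14.8 and 15.2 FPKM against 52.8, 51.5 and 37.1 FPKM, since wild-type replicate 1 was its highest library. Rps4x-ps, a copy of the small-subunit gene Rps4x whose frame holds 1 stop codon, had 1.68, 0.711 and 0.621 FPKM against 3.51, 2.78 and 3.89 FPKM (log2 difference 1.16, limma, adjusted p = 0.545). Its parent differed the other way, at 702.3 ± 105.8 and 477.6 ± 35.6 FPKM without overlap (log2 difference -0.55). Rps4x-ps rested on 10 to 25 fragments in wild-type and 37 to 62 in knockout libraries.

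Sister copies of 1 parent did not differ alike. Rpl30-ps10 had 7.84, 6.21 and 9.93 FPKM in wild-type and 20.5, 25.6 and 12.05 FPKM in knockout libraries (log2 difference 1.14, limma, adjusted p = 0.553), while Rpl30-ps8 lay lower in every knockout library by 0.31 on the log2 scale. The parent Rpl30, a large-subunit gene, was lower in every knockout library, at 130.3 ± 11.1 and 85.8 ± 2.87 FPKM (log2 difference -0.59). In the Rps15a family, Rps15a-ps5 had 0.543, 0.261 and 1.00 FPKM against 1.44, 2.12 and 1.65 FPKM (log2 difference 0.79, limma, adjusted p = 0.608), on 2 to 8 fragments in wild-type and 11 to 14 in knockout libraries. Its sister Rps15a-ps6 had 10.2, 10.0 and 5.01 FPKM against 3.15, 2.58 and 2.15 FPKM (log2 difference -1.33, limma, adjusted p = 0.545), and Rps15a-ps7 lay lower in every knockout library as well, with a log2 difference of -0.71. The small-subunit parent Rps15a was at 137.8 ± 22.7 and 83.7 ± 18.1 FPKM, a log2 difference of -0.72. The copy Rps15a-ps5 lies in an intron of Lrrc8d on the opposite strand, a gene with 1.49, 1.89 and 5.94 FPKM (wild-type) and 5.03, 5.45 and 4.74 FPKM (knockout).

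Rpl36a-ps3, whose letters lie closer to Rpl36al, had 3.32, 3.35 and 1.99 FPKM in wild-type and 6.59, 4.45 and 4.96 FPKM in knockout libraries (log2 difference 0.71, limma, adjusted p = 0.652). Rpl36al had only 0.631, 0.758 and 2.04 FPKM (wild-type) and 0.763, 0.792 and 0.993 FPKM (knockout), so the copy exceeded it in 5 of 6 libraries and stood just under it in wild-type replicate 3. Rpl36a, the parent by name, was at 100.5 ± 32.6 and 58.5 ± 14.0 FPKM, with a log2 difference of -0.75 (limma, adjusted p = 0.680). Rpl36a-ps1, the third copy classed as protein coding, overlapped between the groups at 3.68, 1.83 and 0.877 FPKM against 1.84, 1.99 and 2.11 FPKM.

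**Figure D1:**
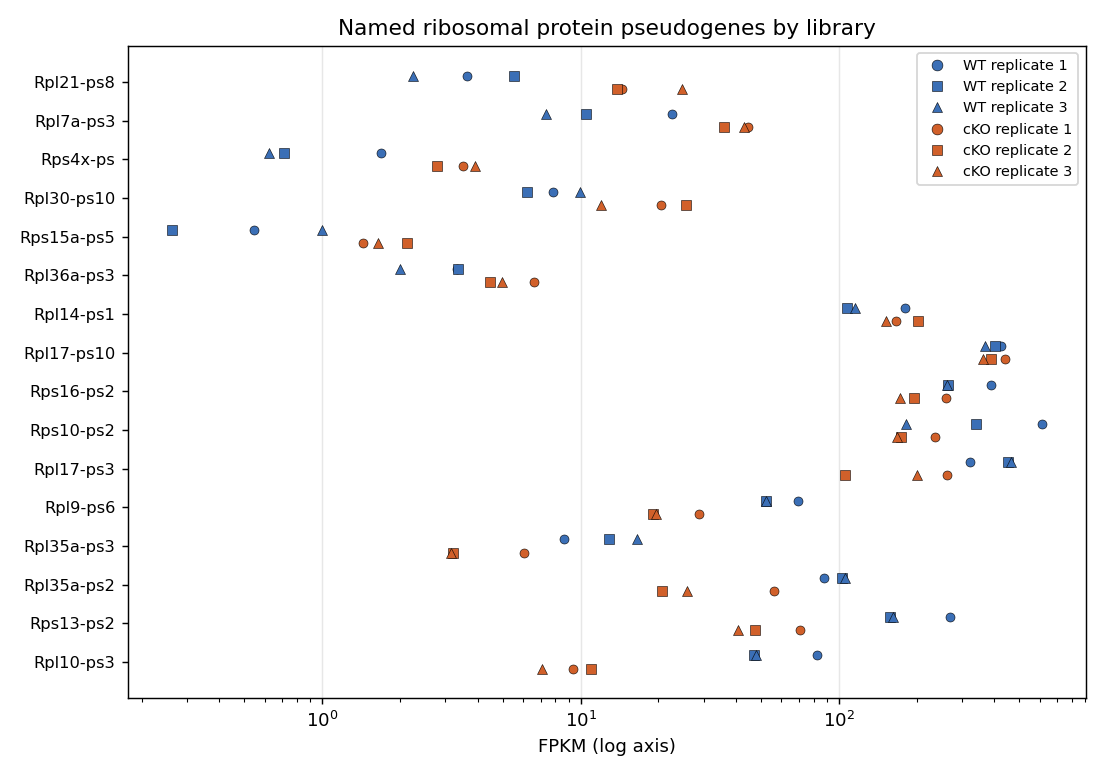
FPKM (log axis) of 16 copies named by rule, 1 row each, ordered by log2 difference, with wild-type libraries in blue and knockout libraries in orange and a symbol for each replicate number. In the 6 top rows every knockout point lies right of every wild-type point, from Rpl36a-ps3 to Rpl21-ps8, and in the lowest rows, such as Rpl10-ps3 and Rps13-ps2, every knockout point lies left.

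The 6 copies with the highest mean did not differ alike, and Rps13-ps2, described above, is one of them. Rpl17-ps10, a copy of the large-subunit gene Rpl17, was the highest member with 399.1 ± 28.0 FPKM in wild-type and 396.5 ± 39.4 FPKM in knockout libraries, a log2 difference of -0.01 whose sign turned with quantile normalization (0.24). Its sister Rpl17-ps3 had 323.1, 452.6 and 463.1 FPKM in wild-type and 263.4, 105.5 and 201.7 FPKM in knockout libraries (log2 difference -1.19, limma, adjusted p = 0.605). Rpl17 itself was at 260.9 ± 42.0 and 161.8 ± 45.9 FPKM, lower in every knockout library. Rps16-ps2, identical to the small-subunit gene Rps16 over the annotated length, had 388.9, 265.0 and 262.1 FPKM against 260.6, 196.1 and 172.7 FPKM (log2 difference -0.54, limma, adjusted p = 0.755), while Rps16 had 464.3 ± 118.2 and 483.5 ± 81.4 FPKM. Rpl14-ps1 overlapped between the groups at 180.0, 107.6 and 115.3 FPKM against 165.8, 202.2 and 152.9 FPKM, yet relative to its parent Rpl14 it lay higher in every knockout library by 0.89 on the log2 scale (exact permutation p = 0.1).

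Several copies were listed above their parent. Rps10-ps2 had 611.9, 339.2 and 182.3 FPKM in wild-type and 234.9, 174.0 and 168.2 FPKM in knockout libraries, with overlapping groups and its highest level in wild-type replicate 1. The small-subunit parent Rps10 had only 1.98, 1.29 and 1.64 FPKM (wild-type) and 2.08, 2.86 and 4.16 FPKM (knockout). In mean FPKM the copy therefore stood 122.1-fold above its parent, and Rps10-ps1 stood 12.4-fold above it. The copies held 97.8% ± 1.21 of the fragments of Rps10 and its copies in wild-type and 93.7% ± 2.82 in knockout libraries (SD, n = 3 each). These shares overlapped between the groups (exact permutation p = 0.2). On the FPKM scale Rpl21-ps15 and Rpl17-ps10 also exceeded their parents in all 6 libraries, with mean ratios of 4.55 and 1.88. Rpl35a-ps2 and Rpl17-ps3 did so in 5 of 6. FPKM are scaled to exon length, so the order can differ in fragments. Rpl17-ps10 had 4422, 4362 and 4166 fragments (wild-type) and 4730, 3608 and 4042 (knockout). Rpl17 had 5472, 6697 and 8196 (wild-type) and 3747, 4759 and 3365 (knockout). Rpl21-ps15 had 599, 577 and 609 (wild-type) and 791, 702 and 910 (knockout), and Rpl21 had 2013, 1138 and 399, and 931, 814 and 1150.

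Beside the copies, 79 genes of cytosolic ribosomal proteins were tested. Of these 63 had a lower and 16 a higher mean in knockout libraries, with a median log2 difference of -0.37, and 0 passed the test over all genes (limma, smallest adjusted p = 0.263, unadjusted p under 0.05 in 23 lower and 0 higher). The groups did not overlap in 28 lower genes, or 35.4%, and in 1 higher gene, Rps10, against 5.01% and 6.28% of all genes. The lower share among copies, 30.3%, thus stood close to that of the ribosomal protein genes themselves. Of the 76 tested copies, 20 differed in the opposite direction to their parent. Among the 23 copies lower in every knockout library, 20 had a parent with a difference below 0, and among the 7 higher copies 5 did. These 5 include Rpl36a-ps3, counted here with Rpl36a, its parent by name.

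**Figure D2:**
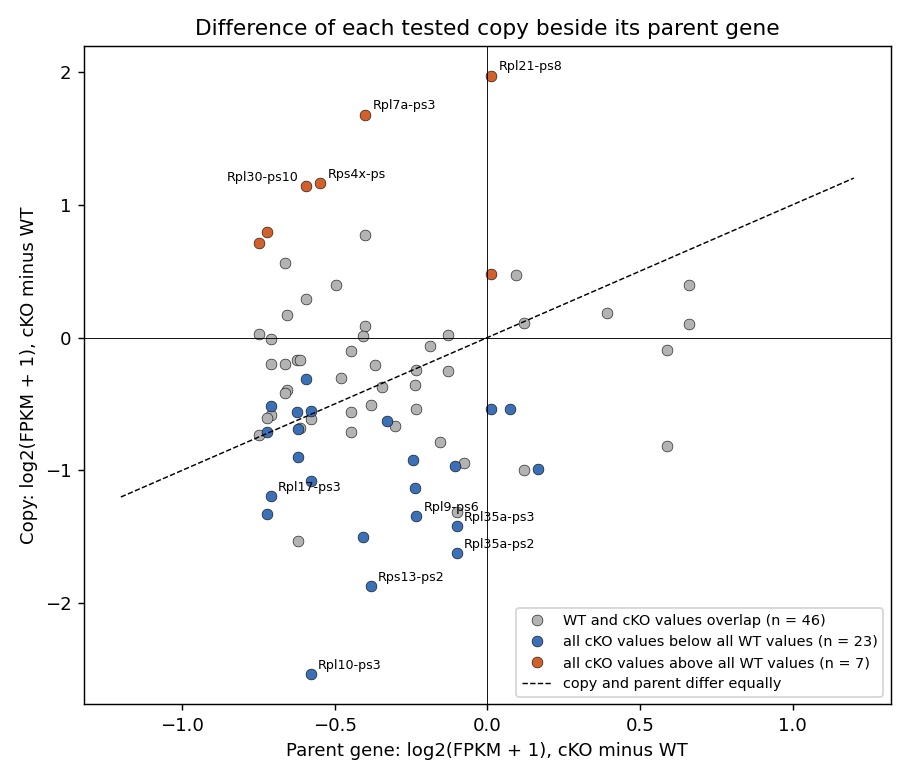
Difference of each of the 76 tested copies (y axis, log2(FPKM + 1), knockout minus wild-type) against that of its parent (x axis, same scale), with the dashed line where both differ equally. The 7 orange copies, higher in every knockout library, all lie above the line, and Rpl10-ps3, Rps13-ps2 and Rpl35a-ps2 lie furthest below it.

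Relative to the parent, on the scale of log2(copy + 1) minus log2(parent + 1), 11 tested copies lay higher in every knockout library, 12 lay lower in every one, and 53 overlapped. A difference from a parent is not defined for other genes, so these counts, and those of families below, have no share over all genes beside them. A copy near 1 FPKM can hardly fall on this scale, so a lower parent alone can place it among the 11. Rpl30-ps1, at 0.589 to 2.45 FPKM with overlapping groups, is one of them, higher by 0.88 relative to Rpl30, which itself differed by -0.59. The lower copies included Rpl31-ps8, identical to Rpl31, at 211.8, 141.2 and 128.0 FPKM against 94.04, 73.9 and 79.4 FPKM, and Rpl10a-ps1, identical to Rpl10a, at 101.9, 53.6 and 64.6 FPKM against 48.0, 32.7 and 27.4 FPKM. In fragments of the parent and its named copies, the share in copies did not overlap between the groups in 16 of 39 families with a tested copy, lower in 10 and higher in 6. For Rpl10 it was 4.11% ± 0.656 in wild-type and 1.47% ± 0.105 in knockout libraries, and for Rps13 15.8% ± 1.12 and 6.84% ± 1.36 (SD, n = 3 each). For Rpl7a it was 17.4% ± 6.54 and 35.0% ± 5.24, and for Rpl30 1.04% ± 0.164 and 2.94% ± 0.765. Each of these 4 shares gave an exact permutation p = 0.1. Adding the copies to the parent changed the family difference little where copies were a small part: for Rpl10 the log2 ratio of fragments was -0.64 for the parent and -0.68 for the family. For Rpl7a it was -0.51 and -0.20, and for Rps10 the sign turned from 0.85 for the parent to -0.87 for the family. A family here is the parent and its named copies alone. Other genes of near-identical sequence are left out, such as Gm8226, with 0 mismatches to Rpl7a-ps11 over 798 bases.

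**Figure D3:**
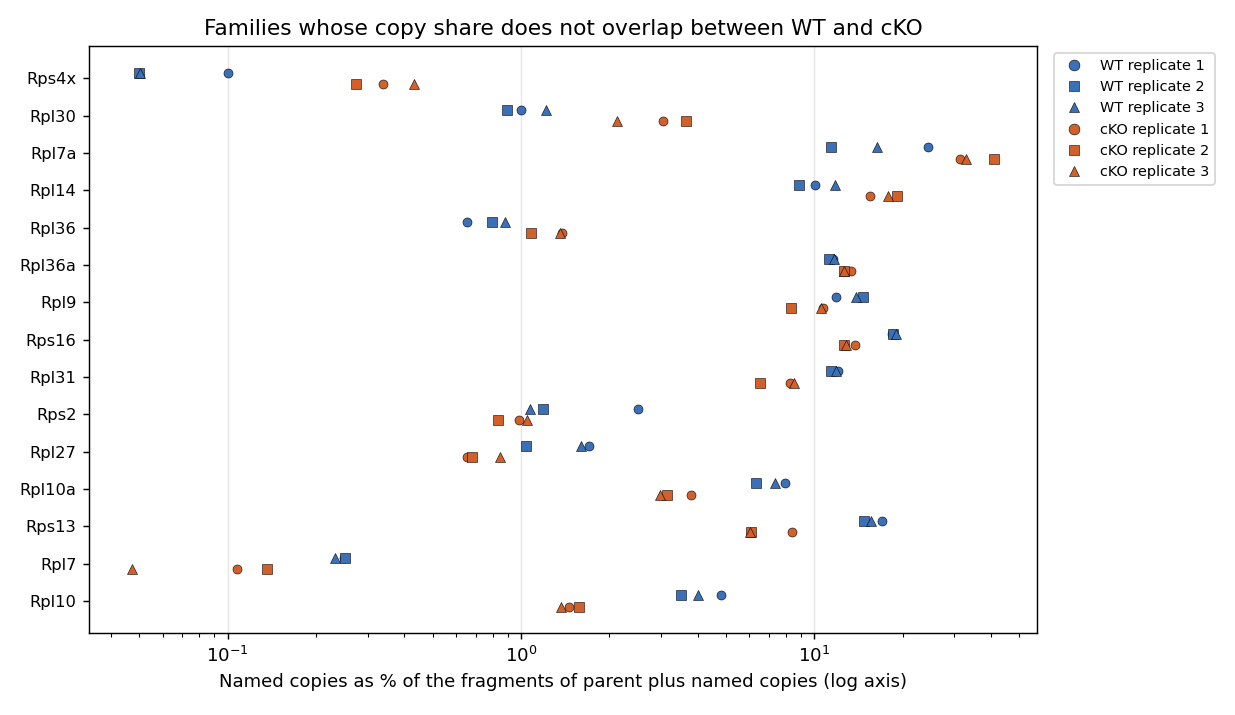
Fragments of the named copies as a percentage of those of parent plus named copies (log axis) in 15 of the 16 families whose share did not overlap between the groups, 1 point per library. From Rps4x at the top to Rpl36a the knockout points lie right of the wild-type points, and from Rpl9 down to Rpl10 they lie left.

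Identity to the parent differed between the directions as follows. The 23 copies lower in every knockout library had a median identity of 99.70% (range 96.47% to 100%), with 7 identical to the parent and 18 at 99% or more. The 7 higher copies had a median of 98.55% (87.54% to 99.38%), with 0 identical and 2 at 99% or more. The lowest value is that of Rpl36a-ps3 against Rpl36a, its parent by name, while its identity to Rpl36al is 99.69%. The 46 copies with overlapping groups lay between, at a median of 99.26% with 5 identical. The longest run of letters shared without a difference was 352 bases in the median lower copy and 180 bases in the median higher copy. These are descriptions of few copies, several of which share a parent, and the sequence is that of the reference mouse and not read from these cultures. The reading frame of the parent was open over at least 95% of its length in 19 of the 23 lower, 6 of the 7 higher and 34 of the 46 overlapping copies, and in 38 of the 91 copies below the filter.

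**Figure D4:**
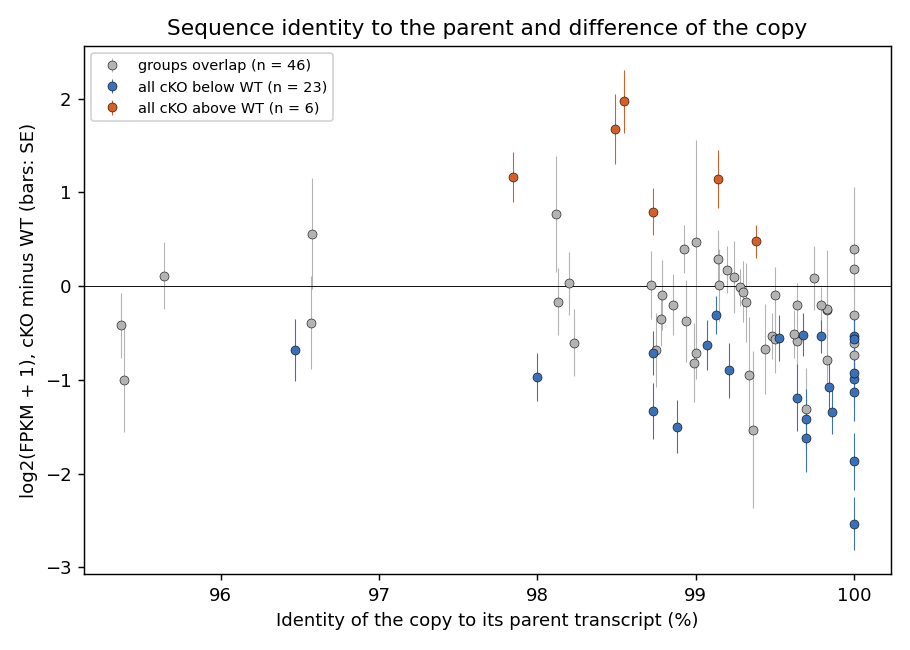
Log2(FPKM + 1) difference of the tested copies, knockout minus wild-type (y axis, bars SE from limma), against identity to the parent transcript in percent (x axis). Rpl36a-ps3, at 87.54%, is left off the axis. The orange copies, higher in every knockout library, lie at 97.85% to 99.38%, and the copies at 100% include Rpl10-ps3 and Rps13-ps2 at the bottom right.

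Of the tested copies, 31 lie inside or over another annotated gene, miRNA genes left aside. The groups did not overlap in 12 of the 31, or 38.7%, close to the 39.5% (30 of 76) of all tested copies. Of the 31, 10 share the strand of the holding gene, and in 4 of these 10 the groups of the copy did not overlap, all lower. Nup93, which holds Rpl10-ps5, averaged 20.2 and 20.6 FPKM (wild-type, then knockout), and Ide, which holds Rpl10-ps6, 17.1 and 16.3 FPKM. Heph, which holds Rpl17-ps8, averaged 6.08 and 4.12 FPKM with overlapping groups. Nudcd3, which holds Rps15a-ps6, had 11.6, 11.2 and 10.4 FPKM against 10.3, 9.81 and 10.2 FPKM, lower in every knockout library like the copy. The part of these genes in the values of the copies was not tested. Rpl21-ps15 lies in an intron of Wnk3 on the opposite strand, with 0.237, 0.658 and 3.78 FPKM (wild-type) and 1.88, 3.54 and 6.80 FPKM (knockout). Fragments of the holding gene cannot be separated by strand here.

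Summed over all 167 copies, the level was 4768, 3281 and 2939 FPKM in wild-type and 2837, 2366 and 2263 FPKM in knockout libraries. All knockout sums lay below all wild-type sums, with a ratio of 0.679 and an exact two-sided permutation p = 0.1. With median-ratio scaling the sums overlapped between the groups, with a log2 ratio of -0.66 and an exact permutation p = 0.2. The 6 highest copies made up 46.1% to 52.9% of each sum. Wild-type replicate 1 was the highest library for 44 of 76 tested copies, and without it the log2 ratio of the sums was -0.32 in place of -0.56. It was also the highest for the summed ribosomal protein genes, at 44612 FPKM against 23251 to 31977 FPKM in the other libraries. Rps2-ps10, a copy of Rps2, shows this most, with 53.2 FPKM in wild-type replicate 1 and 2.58 to 5.84 FPKM in the others. As a ratio to the summed ribosomal protein genes, the copies stood at 0.107, 0.103 and 0.110 in wild-type and 0.0990, 0.0895 and 0.0973 in knockout libraries, again without overlap (exact permutation p = 0.1).

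Single libraries changed some of these counts. Without wild-type replicate 3 the test called 6 copies, 5 lower (1.42% of all genes were called lower) and 1 higher (2.47% of all genes), among them Rpl10-ps3, Rps13-ps2, Rps15a-ps6, Rpl9-ps6 and Rpl21-ps8. Leaving out any other library gave 0. For Rpl10-ps3 the adjusted p was 0.0107 without wild-type replicate 3 and reached 0.516 in another setting (limma). Without wild-type replicate 1 the copies higher in every knockout library numbered 16 in place of 7, against 12.7% of all tested genes in that setting. Without knockout replicate 1 the lower ones numbered 35 in place of 23, against 11.8% of all tested genes. Groups of 3 and 2 libraries separate more often than groups of 3 by construction.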

How the data were processed

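RNA sequencing of 6 primary Sertoli cell cultures was analysed, 3 wild-type and 3 Arhgef15 cKO, grouped by title. The submitters' processing notes name FastQC, HISAT2 2.1.0 and genome build mm8. The counting tool, its annotation, its strand setting and its handling of multiply matching fragments are named in none of the sources used here. The deposited values were taken as FPKM from the values themselves, since no label names the unit. They fell on whole fragments at GENCODE M21 exonic lengths, which belong to a later build than mm8, so coordinates were left out. A symbol was found for 28932 of 29275 identifiers.

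Values were used as log2(FPKM + 1), which understates differences of low genes. The 12284 genes that reached 1 FPKM in 3 or more of 6 libraries entered limma 3.58.1 (R 4.3.3, moderated with a mean trend) with genotype alone. Tests were two-sided with Benjamini-Hochberg adjustment over all these genes and a threshold of 0.05, and the fit was tested on simulated data. Count models were not used on FPKM. The parent is the gene whose symbol precedes -ps. Copies were aligned to GENCODE M21 transcripts with BLAST 2.17.0 (Python 3.11.15 for tables and figures), and identity is that of the best alignment to the parent.

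Copies named by rule were any past the threshold, the 6 with the largest difference in each direction without overlap, the 6 with the highest mean, and their parents. A copy named by rule and a sequence are not reported here. Every other copy was named after its values were seen. The members and lists were chosen with earlier results of these data known. Other filters, pseudocounts, scalings, array weights, a replicate block and each library left out were tried.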

Additional observations from a re-analysis of the deposited data

How the results depend on the processing

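The count of copies past the threshold was 0 in every setting but 1, with a range of 0 to 6 when each library was left out, and that of ribosomal protein genes ranged from 0 to 2. Copies higher in every knockout library numbered 4 with at least 5 FPKM in 3 libraries (6.66% of all genes tested there), and 7 to 16 with a library left out (8.04% to 25.9% of all genes). Counts and shares did not rise together. Of the 76 copies, 16 were higher without wild-type replicate 1 (12.7% of all genes) and 7 without wild-type replicate 3 (25.9%). Lower copies numbered 24 to 35 with a library left out (6.16% to 15.5% of all genes). The median difference of copies was -0.10 without a filter, where barely detected copies enter. Higher ribosomal protein genes numbered 0 with the stricter filter and with median-ratio scaling, 7 with quantile normalization and 1 to 14 with a library left out. Lower ones numbered 22 both with median-ratio scaling and after quantile normalization, and 28 to 49 with a library left out (6.16% to 15.5% of all genes). Shares over all genes were not computed for median-ratio scaling or quantile normalization. The median difference of ribosomal protein genes was -0.16 with quantile normalization. Rpl17-ps10 turned sign with quantile normalization (0.24) and without wild-type replicate 1 or knockout replicate 2 or 3, with a range of -0.089 to 0.05 over the libraries left out, and the cause was not tested. The other 16 copies chosen by rule kept their direction in every setting run. With the replicate number as a block, 0 copies and 0 ribosomal protein genes passed, the summed level differed by -0.53 (log2), and Arhgef15 by 0.26. The numbers do not pair the libraries: correlations of same-numbered deviations were 0.138, 0.0322 and -0.206, and 2 of 6 libraries correlated best with their own number. Copies with under 30 fragments, such as Rps15a-ps5, carry wide counting error.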

Other observations

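Expressed paralogs and retrogenes of ribosomal protein genes, which are not named as pseudogenes, were listed beside the copies. Rpl22l1, a paralog of Rpl22, had 10.9, 16.9 and 20.4 FPKM in wild-type and 32.5, 26.0 and 32.3 FPKM in knockout libraries, higher in every knockout library (limma, adjusted p = 0.582). Rps27l, a paralog of Rps27, had 311.4, 288.9 and 196.2 FPKM against 154.5, 160.9 and 136.5 FPKM, lower in every one (limma, adjusted p = 0.605). Rps27rt, a retrogene of Rps27, was the 1 gene of these 8 past the threshold (limma, adjusted p = 0.00899). Rpl10l, a retrogene of Rpl10 known from male germ cells, was listed at 25.9 FPKM in wild-type replicate 3 and 35.3 FPKM in knockout replicate 1, and at 0.678 to 1.75 FPKM in the other 4 libraries. Rpl39l, another paralog known from germ cells, was highest in the same pair of libraries, at 8.29 and 15.0 FPKM, against 0.370 to 0.789 FPKM elsewhere. The summed level of 12 spermatogonia and spermatocyte markers was 144.1 and 127.9 FPKM in that pair and 4.75 to 13.1 FPKM in the other libraries. Rpl3l was under 0.2 FPKM in all libraries, Rpl7l1 had 44.7 and 45.2 FPKM on average, and Rps4l 101.5 and 82.0 FPKM.

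Among copies below the filter, Rps12-ps26 was listed at 0 in all wild-type libraries and at 0.775, 0 and 1.05 FPKM in knockout replicates 1, 2 and 3, and Rpl13a-ps1 at 0 in all wild-type libraries and at 0.0843, 1.07 and 0 FPKM. Neither separated the groups.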
